A study of Homo sapiens with 18 samples.

Results

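The expression of 51 genes of DNA damage signalling and repair was examined in SK-N-MC cells exposed to rotenone for 1 or 4 weeks. The genes were taken by name, and a probe set counted for a gene only where the annotation of the array assigned it to that gene alone, under its current or a former symbol. Of the 51 genes, 48 were measured and tested among 9162 genes in all. BRCA2 and FANCA had no probe set listed, and PMS2 had only probe sets shared with another gene, so these 3 are not analysed here. The cells, called neuroepithelioma in the labels and neuroblastoma in the study, are an established human tumor line. They were grown without sodium pyruvate, with vehicle (0.05% ethanol) or with 5 nM or 50 nM rotenone, an inhibitor of complex I of the mitochondrial respiratory chain that also destabilizes microtubules. The labels describe 5 nM as not lethal to the cells and 50 nM as killing some of them. With 3 arrays per group, the 18 Affymetrix arrays formed the groups 1w0nM, 1w5nM and 1w50nM, collected after 1 week, and 4w0nM, 4w5nM and 4w50nM, collected after 4 weeks. Each array held the pooled RNA of the dishes of 1 of 3 experiments, and a p-value here reflects how far such pools of 1 cell line scatter. The group means that the study tabulated for 1 week match its arrays only if 1w5nM replicate 2 and 1w50nM replicate 3 are exchanged, so the labels of these 2 arrays are in doubt. Groups follow the labels here. Values with the exchange, an alternative chosen after the data were seen, are given with the 1-week counts and for the calls against vehicle that it ended.

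DNA breaks are recognized by the MRE11-RAD50-NBN complex and the kinase ATM, whereas stalled replication forks and resected ends activate the kinase ATR, which signals through CHEK1. Broken ends are rejoined directly by non-homologous end joining or copied from the sister chromatid by homologous recombination, and damaged or mispaired bases are replaced by base excision, nucleotide excision and mismatch repair. Complex I inhibitors raise the production of reactive oxygen species, and oxidized bases and single-strand breaks are the lesions that such species are best known for.

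After 4 weeks, members that rose with 1 dose or both were found in checkpoint signalling, break recognition, end joining and mismatch repair. Others were in nucleotide excision repair, crosslink repair and translesion synthesis and, with 50 nM only, in base excision repair. Those that fell with 1 dose or both were RAD54L, XRCC2 and XRCC3 in recombination, and RAD1, DDB2, XRCC6 and PRKDC in other roles. RAD52, also a recombination gene, rose with 50 nM. Against vehicle, 15 of the 48 members were higher and 4 lower with 5 nM (limma, Benjamini-Hochberg adjusted p below 0.05 over all 9162 genes), in a comparison in which 18.6% of all genes were called higher and 14.3% lower. With 50 nM, 15 members were higher and 6 lower, against 23.5% and 17.7% of all genes. Of the 48 members, 15 are genes that the study itself had picked out on these arrays, and their direction is therefore no independent evidence. They supplied 11 of the 15 rises with 5 nM and 9 of the 15 with 50 nM, and none of the falls. In a split made after the data were seen, the other 33 members held 4 rises with 5 nM and as many falls (12.1% each). With 50 nM they held 6 of either kind (18.2% each). Taking out genes that were picked on these arrays lowers the share of rises by itself. These shares can therefore not be set against those of all genes. Regardless of a call, 21 members lay above vehicle and 8 below on all arrays with 5 nM (30.1% and 23% of all genes), and 22 above and 10 below with 50 nM (32.6% and 27.3%). The median log2 difference of the members was 0.12 with 5 nM and 0.17 with 50 nM, beside 0.03 and 0.02 for all genes, and that of the other 33 members was 0.02 and 0.03. Of the members, 11 were called higher at both doses (ATR, FANCL, MRE11, NBN, PMS1, RAD23B, RAD50, REV3L, TDP2, XPA and XRCC4), and 3 lower at both (DDB2, RAD1 and XRCC2). The comparisons of the doses share the 3 vehicle arrays of their week, so these counts are not independent of each other. At least 2-fold rises were found for 2 members with 5 nM (ATR and REV3L; 3.61% of all genes) and for 5 members with 50 nM (ATR, REV3L, TDP2, PMS1 and XPA; 5.75% of all genes). No member fell 2-fold or more (limma, called), where 2.99% of all genes did with 5 nM and 4.26% with 50 nM.

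**Figure D1:**
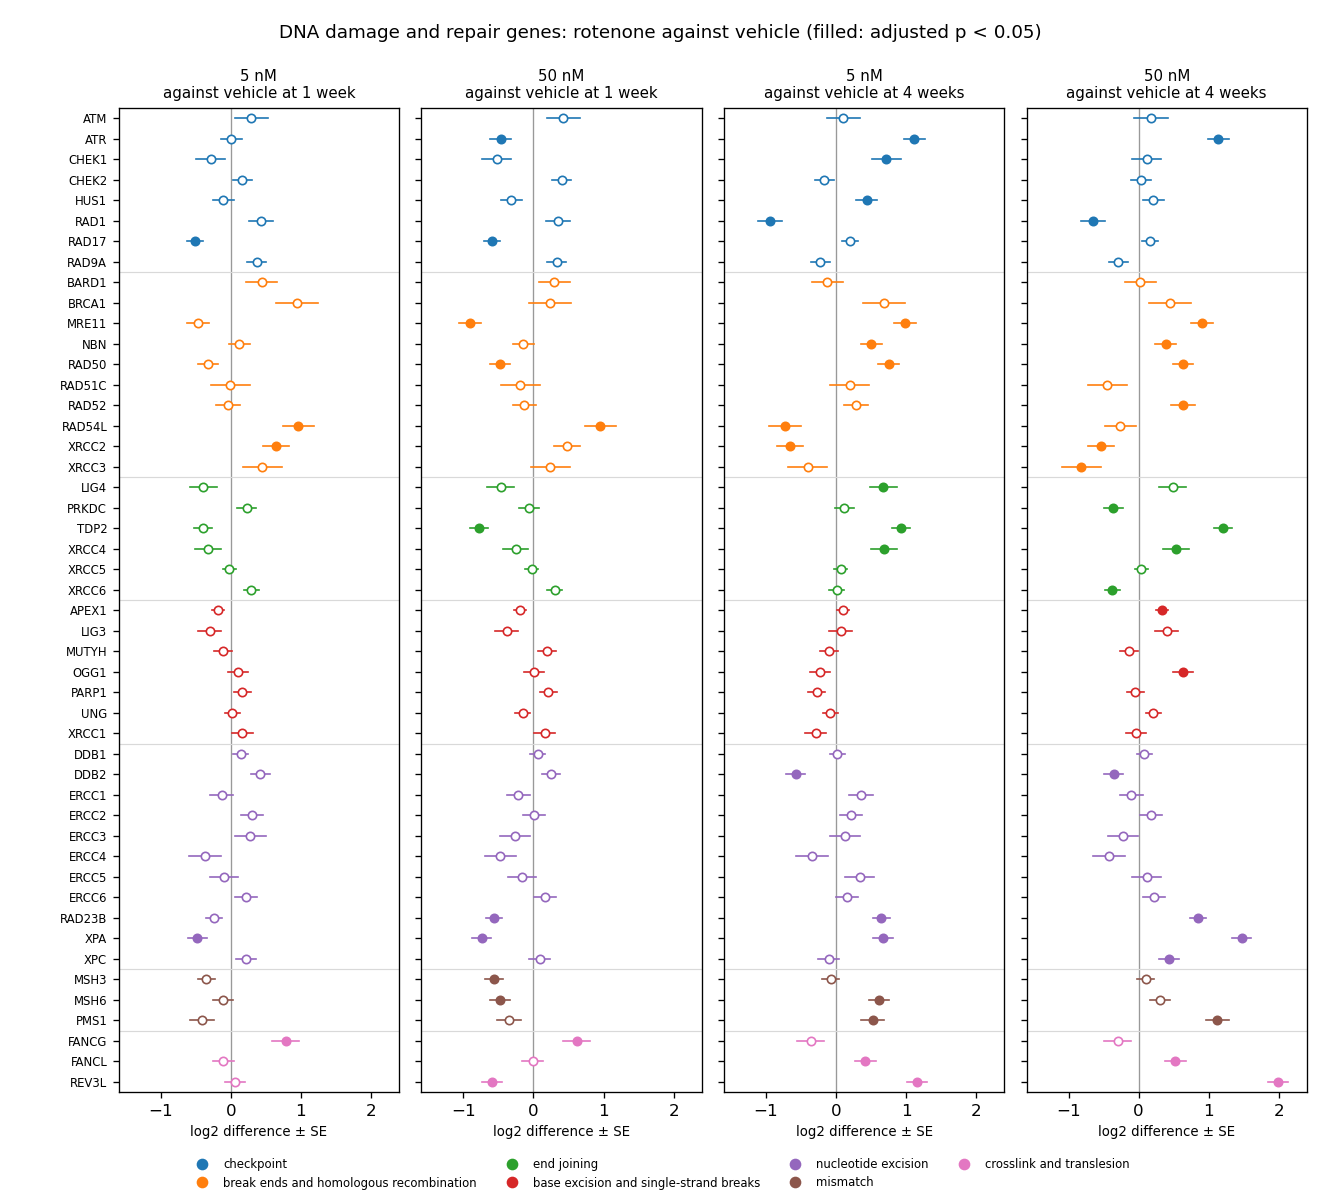
Log2 difference between rotenone and vehicle (x axis, with the standard error of the limma fit as a bar) for the 48 members tested (y axis, coloured by role), one panel for each dose and week; filled points have an adjusted p below 0.05. The panels at 4 weeks hold 15 filled points to the right of 0 for each dose, whereas the panel of 50 nM at 1 week holds 10 to the left and 2 to the right.

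The promoters of 5 members are shown because these genes are among those that moved in opposite directions at 4 weeks, ATR, REV3L and XPA upwards and RAD54L and XRCC2 downwards. The windows run from 250 bases before to 50 bases after the start of the gene (RefSeq, GRCh38.p14), and are written 5′ to 3′ on the strand of the gene. They lie at chr3:142578684-142578983 (minus strand, ATR), chr6:111483662-111483961 (minus strand, REV3L), chr9:97697291-97697590 (minus strand, XPA), chr1:46247438-46247737 (plus strand, RAD54L) and chr7:152676092-152676391 (minus strand, XRCC2). REV3L and RAD54L each have 2 windows in the table, of which the first is shown. Capitals mark any match, on either strand, to the core motifs of E2F (the letters TTCCCGC, the variant TTCGCGC, the variant TTGCCGC or the variant TTGGCGC), the CCAAT box (CCAAT), ETS factors (CCGGAAG), the GC box (GGGCGG) or NRF1 (TGCGCA).
ATR: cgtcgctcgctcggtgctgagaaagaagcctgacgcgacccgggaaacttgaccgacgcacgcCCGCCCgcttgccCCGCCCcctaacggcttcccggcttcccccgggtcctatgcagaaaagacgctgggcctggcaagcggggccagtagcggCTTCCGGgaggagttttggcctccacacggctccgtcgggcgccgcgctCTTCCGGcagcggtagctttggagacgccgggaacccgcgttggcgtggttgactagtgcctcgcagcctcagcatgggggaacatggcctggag
REV3L: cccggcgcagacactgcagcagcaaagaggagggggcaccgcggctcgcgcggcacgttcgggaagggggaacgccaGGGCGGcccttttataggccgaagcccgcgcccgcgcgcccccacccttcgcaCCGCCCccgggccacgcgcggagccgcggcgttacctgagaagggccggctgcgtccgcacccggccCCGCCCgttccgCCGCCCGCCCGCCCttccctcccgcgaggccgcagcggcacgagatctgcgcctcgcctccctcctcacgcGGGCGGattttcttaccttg
XPA: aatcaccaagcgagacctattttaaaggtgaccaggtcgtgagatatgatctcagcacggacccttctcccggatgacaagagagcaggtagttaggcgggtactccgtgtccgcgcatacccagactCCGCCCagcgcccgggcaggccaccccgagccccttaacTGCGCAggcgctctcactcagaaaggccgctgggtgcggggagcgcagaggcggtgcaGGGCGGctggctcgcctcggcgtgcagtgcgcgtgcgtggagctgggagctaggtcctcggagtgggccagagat
RAD54L: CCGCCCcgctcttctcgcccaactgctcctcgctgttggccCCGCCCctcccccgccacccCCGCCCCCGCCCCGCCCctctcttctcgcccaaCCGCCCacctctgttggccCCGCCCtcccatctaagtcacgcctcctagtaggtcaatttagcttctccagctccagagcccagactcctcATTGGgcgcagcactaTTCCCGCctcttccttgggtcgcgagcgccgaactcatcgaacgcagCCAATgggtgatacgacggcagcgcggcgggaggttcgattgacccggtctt
XRCC2: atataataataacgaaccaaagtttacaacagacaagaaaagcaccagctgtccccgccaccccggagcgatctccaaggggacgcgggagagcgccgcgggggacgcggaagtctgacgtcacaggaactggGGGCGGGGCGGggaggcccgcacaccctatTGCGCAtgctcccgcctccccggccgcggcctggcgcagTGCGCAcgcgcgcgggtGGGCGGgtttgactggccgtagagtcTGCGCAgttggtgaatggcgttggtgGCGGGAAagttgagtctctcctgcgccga

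E2F factors drive genes of DNA replication in S phase, and their core motif was found in 42.9% of the 70 windows of the members, compared with 18.4% of the windows of all genes tested and 13.0% of all 35114 windows. The windows shown for RAD54L and XRCC2 each hold 1 such match, and those shown for ATR, REV3L and XPA hold none. The REV3L window that is not shown holds 1. Of the 8 windows of members that were called lower in a 4-week comparison with vehicle, 7 held the E2F core, and of the 13 windows of members called higher at both doses, 4 did. These groups follow unlike rules, since a call at 1 dose counts only among the falls. Members that rose at 1 dose alone are in neither. Of these, MSH6, OGG1, XPC and RAD52 have a window with the core, and CHEK1, LIG4 and APEX1 have none. The RAD54L windows overlap, and RAD1 fell on 1 probe set only. The GC box was found in 70.0% of the windows of the members and in 63.5% of those of all genes tested, the CCAAT box in 44.3% and 35.2%, the ETS core in 21.4% and 15.3% and the NRF1 core in 20.0% and 11.3%. A window was listed for 44 of the 48 members, and 16 members had more than 1. The matches describe the letters of the windows, and no binding was measured.

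Among the 8 checkpoint genes, each read from its brightest probe set, ATR showed the largest change at 4 weeks. Its signal in the 3 vehicle arrays at 4 weeks was 347, 360 and 335, compared with 790, 745 and 718 in 4w5nM and 950, 761 and 609 in 4w50nM. Every rotenone array lay above every vehicle array, and the log2 difference was 1.11 ± 0.15 (SE, adjusted p = 4.51e-05) with 5 nM and 1.13 ± 0.15 (2.25e-05) with 50 nM. A second ATR probe set rose as well, by 0.75 ± 0.17 (0.00301) and 0.78 ± 0.17 (0.00169) on the log2 scale. At 1 week the order was different. The arrays read 443, 436 and 320 in 1w0nM, 398, 413 and 378 in 1w5nM and 283, 285 and 290 in 1w50nM, so that ATR was lower with 50 nM (-0.47 ± 0.15, adjusted p = 0.0353) and did not differ detectably with 5 nM (0.00 ± 0.15, 0.995). With the 2 arrays of doubtful label exchanged, ATR was not called with 50 nM (limma, -0.30, adjusted p = 0.284).

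CHEK1, the effector kinase of ATR, followed the dose differently. Its signals at 4 weeks were 319, 318 and 256 with vehicle, 526, 527 and 419 with 5 nM and 311, 320 and 333 with 50 nM. CHEK1 rose with 5 nM (0.72 ± 0.20 on the log2 scale, adjusted p = 0.012), with no overlap between the arrays, was not called with 50 nM (0.12 ± 0.20, 0.677), and was lower with 50 nM than with 5 nM by a margin at the threshold (-0.60 ± 0.20, adjusted p = 0.0500). The second probe set of CHEK1 gave 1.00 ± 0.20 with 5 nM and 0.41 ± 0.20 with 50 nM. HUS1, a ring protein of the clamp that loads at damaged sites, rose with 5 nM (0.44 ± 0.15, adjusted p = 0.0313, against 0.21 ± 0.15 with 50 nM, 0.278). The difference between the doses was not called for HUS1 (-0.23 ± 0.15, 0.325).

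ATM and CHEK2, the kinase pair of double-strand breaks, were not called in any comparison with vehicle. CHEK2 read 348, 361 and 349 with vehicle at 4 weeks, 356, 352 and 248 with 5 nM and 342, 380 and 358 with 50 nM. At 1 week, CHEK2 signals were 314, 272 and 350 with vehicle, 355, 359 and 330 with 5 nM and 399, 393 and 439 with 50 nM, and the last difference just missed the threshold (0.40 ± 0.14, adjusted p = 0.0500). ATM was tested on a probe set that read 122, 218 and 129 in 1w0nM, 268, 164 and 142 in 1w5nM, 170, 251 and 193 in 1w50nM, 135, 207 and 187 in 4w0nM, 190, 183 and 186 in 4w5nM and 193, 191 and 204 in 4w50nM. These arrays overlap at both weeks, and the log2 differences lay between 0.10 and 0.42 (adjusted p of at least 0.217). A dimmer ATM probe set, however, was higher at 4 weeks with 5 nM (0.81 ± 0.23, adjusted p = 0.0116) and with 50 nM (0.60 ± 0.23, 0.0441), and the remaining one gave 0.51 and 0.40 without a call.

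The loading and sliding clamp genes RAD17 and RAD1 depended on the probe set as well. RAD17, which loads this clamp, was tested on the brightest of 3 probe sets, with 676, 717 and 677 in 1w0nM, 465, 482 and 508 in 1w5nM and 436, 448 and 483 in 1w50nM. All rotenone arrays at 1 week were below the vehicle arrays, and RAD17 fell by 0.51 with 5 nM (SE 0.11, adjusted p = 0.0125) and by 0.60 with 50 nM (SE 0.11, 0.00206). The other RAD17 probe sets fell too at 50 nM, with differences of -0.62 and -0.52. At 4 weeks the tested set gave 0.19 and 0.17 without a call, whereas another gave 1.08 ± 0.13 (adjusted p = 2.12e-05) with 5 nM and 1.20 ± 0.13 (6.26e-06) with 50 nM. RAD1, another ring protein of the clamp, was tested on an _x_at set, a class whose probes can match other transcripts, and read 1135, 1382 and 1365 in 4w0nM, 570, 576 and 910 in 4w5nM and 819, 946 and 715 in 4w50nM. On this set RAD1 fell by 0.95 (SE 0.17, adjusted p = 0.000547) with 5 nM and by 0.65 (SE 0.17, 0.00585) with 50 nM, but the other 2 sets gave 0.26 and 0.35 with 5 nM and 0.19 and 0.18 with 50 nM, with no call. The fall of RAD1 is therefore the reading of 1 probe set, and the mean over its probe sets was not called at either dose. RAD9A was not called against vehicle at either week, with differences of 0.37 and 0.33 at 1 week and -0.22 and -0.29 at 4 weeks.

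**Figure D2:**
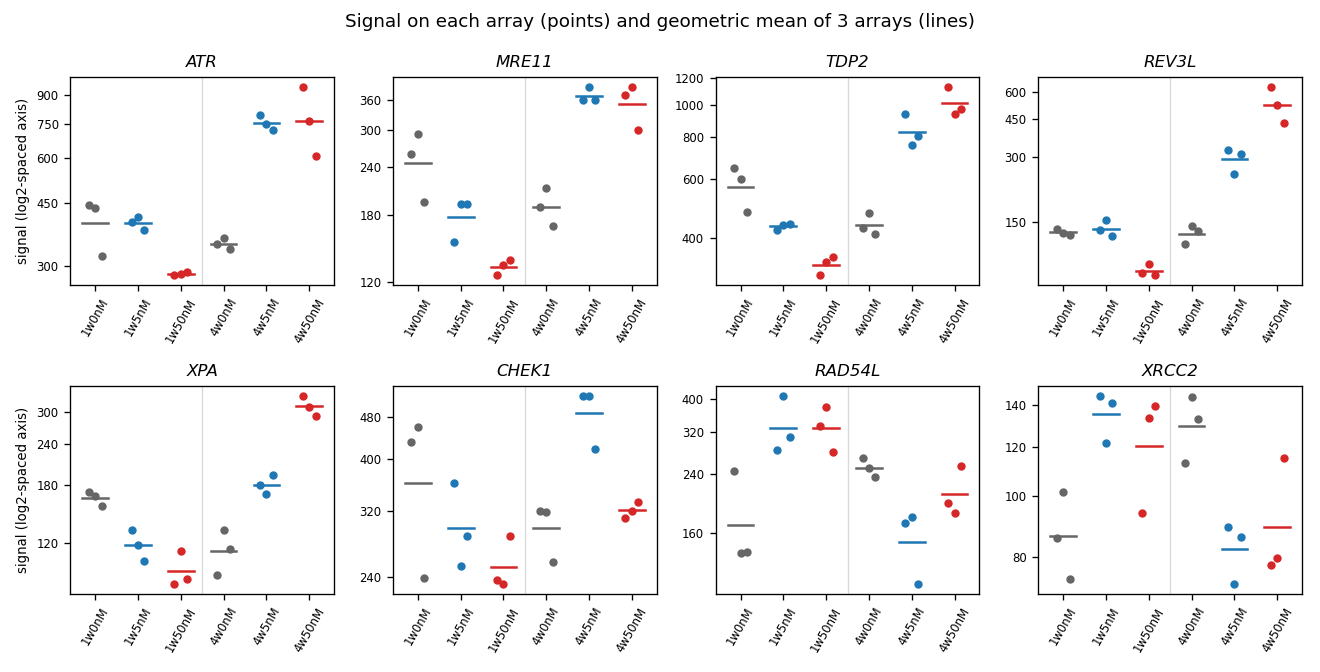
Signal (y axis, log2-spaced, deposited linear units) on each of the 18 arrays for 8 members, by group (x axis; grey vehicle, blue 5 nM, red 50 nM), with the geometric mean of 3 arrays as a line. ATR, MRE11, TDP2, REV3L and XPA are above vehicle on all 6 rotenone arrays at 4 weeks and below it on all 3 arrays labelled 50 nM at 1 week, while RAD54L is above vehicle at 1 week and mostly below it at 4 weeks. With 1w5nM replicate 2 and 1w50nM replicate 3 exchanged, ATR and REV3L would not lie below vehicle on all 3.

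The 3 genes of the MRE11-RAD50-NBN complex, which binds and trims broken ends, were each called higher at 4 weeks on their brightest probe set. MRE11, the nuclease, read 188, 211 and 168 in 4w0nM, 361, 391 and 361 in 4w5nM and 373, 391 and 301 in 4w50nM. The arrays did not overlap, and the log2 difference was 0.98 ± 0.16 (adjusted p = 0.000188) with 5 nM and 0.91 ± 0.16 (0.00022) with 50 nM. RAD50, the hinged ATPase, rose by 0.75 ± 0.15 (0.000957) and 0.63 ± 0.15 (0.00233), and NBN, which brings ATM to the complex, by 0.50 ± 0.15 (0.017) and 0.39 ± 0.15 (0.0496). The call of NBN with 50 nM was lost on leaving out any 1 of the 6 arrays. With the probe sets of a gene averaged, NBN was not called at either dose (adjusted p = 0.0759 and 0.197), nor RAD50 with 50 nM (0.0651). At 1 week, MRE11 read 260, 293 and 194 in 1w0nM, 152, 192 and 192 in 1w5nM and 125, 132.8 and 137 in 1w50nM. With 50 nM every array was below vehicle, MRE11 falling by 0.90 (SE 0.16, adjusted p = 0.00109) and RAD50 by 0.48 (SE 0.15, 0.0287), whereas NBN differed by -0.14 ± 0.15 (0.532). With the 2 arrays of doubtful label exchanged, RAD50 was not called there (limma, -0.40, adjusted p = 0.0773).

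Of the 10 homologous recombination and break-end genes tested, RAD54L, XRCC2 and XRCC3 went the other way. RAD54L, a motor protein that acts in the strand exchange, read 244, 140 and 141 in 1w0nM, 282, 409 and 308 in 1w5nM and 333, 378 and 279 in 1w50nM, and rose by 0.96 ± 0.22 with either dose (adjusted p = 0.0149 and 0.00679). At 4 weeks it read 267, 250 and 235 with vehicle, 171, 178 and 113 with 5 nM and 197, 183 and 253 with 50 nM. The arrays of 5 nM were all lower, with a difference of -0.73 ± 0.22 (0.0178), whereas those of 50 nM overlapped with vehicle (-0.26 ± 0.22, 0.371).

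XRCC2, a recombination gene read from an _x_at probe set, moved in the same directions as RAD54L, but its calls with 50 nM fell on the other week. Its signals were 85.7, 102 and 73.8 in 1w0nM, 145, 122 and 141 in 1w5nM and 94.0, 133.2 and 139 in 1w50nM. XRCC2 rose with 5 nM (0.65 ± 0.18, adjusted p = 0.0425) and was not called with 50 nM at 1 week (0.48 ± 0.18, 0.0746). Settings that ended this call with 5 nM in limma included quantile normalization (adjusted p = 0.0507), median scaling (0.0632), no filter (0.0683) and a replicate block (0.0536). At 4 weeks XRCC2 read 113, 144 and 132.6 with vehicle, 89.3, 72.3 and 85.9 with 5 nM and 77.7, 79.5 and 115 with 50 nM. It fell by 0.65 (SE 0.18, 0.0117) with 5 nM, with no overlap, and by 0.53 (SE 0.18, 0.0276) with 50 nM, where 1 array reached the vehicle range.

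XRCC3, which also acts in recombination, read 185, 191 and 195 in 4w0nM, 155, 212 and 89.9 in 4w5nM and 117, 85.8 and 125 in 4w50nM. Only the arrays of 50 nM lay apart from vehicle, and XRCC3 fell by 0.82 (SE 0.28, adjusted p = 0.0252) there. RAD52, an annealing protein, rose with 50 nM (0.63 ± 0.17, 0.00589). BRCA1, which promotes the resection of broken ends, read 158, 181 and 178 in 4w0nM, 323, 312 and 211 in 4w5nM and 235, 231 and 234 in 4w50nM. Although no rotenone array overlapped with vehicle at 4 weeks, BRCA1 was not called (0.69 ± 0.30, adjusted p = 0.0849, and 0.44 ± 0.30, 0.252). The 1w0nM arrays, which enter the estimate of the spread, read 197, 126 and 54.6. At 1 week BRCA1 read 190, 241 and 210 with 5 nM and 137, 144 and 113 with 50 nM. A second BRCA1 probe set was lower with 50 nM at 4 weeks (-0.64 ± 0.23, 0.0335), so that its probe sets oppose each other. BARD1, the partner of BRCA1, had differences between -0.12 and 0.44 with no call.

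In end joining, the most changed member was TDP2, which removes trapped topoisomerase II from DNA ends. TDP2 read 429, 476 and 412 in 4w0nM, 936, 760 and 810 in 4w5nM and 1134, 936 and 975 in 4w50nM. All rotenone arrays exceeded all vehicle arrays, the log2 difference being 0.92 ± 0.13 (adjusted p = 6.86e-05) with 5 nM and 1.21 ± 0.13 (4.77e-06) with 50 nM. At 1 week it read 646, 601 and 477 with vehicle, 422, 439 and 439 with 5 nM and 310, 339 and 350.9 with 50 nM. These arrays were all below vehicle, and TDP2 fell by 0.78 (SE 0.13, 0.000837) with 50 nM, the fall with 5 nM not reaching the threshold (-0.40 ± 0.13, 0.0738).

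XRCC4 and LIG4, the scaffold and ligase that seal the ends, gave 0.68 ± 0.18 (adjusted p = 0.00854) and 0.67 ± 0.19 (0.012) with 5 nM at 4 weeks. With 50 nM, XRCC4 was called (0.53 ± 0.18, 0.027; 0.0589 with its probe sets averaged) and LIG4 just missed the threshold (0.48 ± 0.19, 0.0505). The Ku heterodimer, which first binds the ends, did not follow. Its subunit XRCC5 differed by no more than 0.07 in any comparison with vehicle, and XRCC6 read 2742, 2732 and 2638 in 4w0nM, 2685, 3108 and 2414 in 4w5nM and 2061, 1918 and 2281 in 4w50nM. XRCC6 fell by 0.38 (SE 0.11, 0.00924) with 50 nM, all 3 arrays being below those of the other 4-week groups. PRKDC, the kinase that Ku recruits, read 1805, 1800 and 1641, then 1941, 1809 and 1948, and then 1561, 1229 and 1314 in the same order of groups. PRKDC with 50 nM was lower than vehicle by a small margin (-0.36 ± 0.14, 0.0495), and the call was lost with median scaling (0.0687), no filter (0.0777) or no intensity trend (0.0703). Of its other probe sets, the brighter gave -0.02 without a call and the dimmer -1.08 (0.00117).

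Base excision repair, the main route for oxidized bases, held the fewest calls of the roles among the members, though not among the repair genes at large. None of its 7 members was called at 1 week or with 5 nM at 4 weeks. With 50 nM at 4 weeks 2 rose (28.6%), where 23.5% of all genes did. Of 19 other base excision genes in the wider list below, 3 rose and 4 fell with 5 nM at 4 weeks. With 50 nM 3 of them rose and 5 fell (15.8% and 26.3%), against 23.5% and 17.7% of all genes. APEX1, the nuclease that cuts at abasic sites, rose by 0.33 ± 0.09 (adjusted p = 0.00518) there. OGG1, the glycosylase for 8-oxoguanine, read 227, 268 and 249 in 4w0nM, 227, 211 and 195 in 4w5nM and 405, 372 and 371 in 4w50nM. Its tested probe set rose with 50 nM (0.63 ± 0.14, 0.00219), with no overlap, but another OGG1 probe set fell there (-0.81 ± 0.21, 0.00452) and the last gave -0.21, so that the direction of OGG1 turned when its probe sets were averaged (-0.13, adjusted p = 0.404). PARP1, which senses single-strand breaks, read 1995, 1800 and 1786 in 4w0nM, 1714, 1737 and 1213 in 4w5nM and 1804, 1635 and 1974 in 4w50nM. At 1 week PARP1 read 1748, 1499 and 1679 with vehicle, 1884, 1781 and 1829 with 5 nM and 1995, 1954 and 1749 with 50 nM. PARP1 was not called at either week, with differences between -0.28 ± 0.12 (0.0902) and 0.21 ± 0.12 (0.231). XRCC1, LIG3, UNG and MUTYH were not called against vehicle, though the other probe set of LIG3 rose with 50 nM at 4 weeks (0.82 ± 0.20, 0.00325).

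Of the 11 nucleotide excision genes, the lesion verifier and the XPC partner changed most. XPA, which verifies the lesion, read 95.8, 131 and 115 in 4w0nM, 179, 169 and 193 in 4w5nM and 337, 312 and 292 in 4w50nM. The 3 groups did not overlap, and XPA rose by 0.67 ± 0.14 (adjusted p = 0.00141) with 5 nM and by 1.47 ± 0.14 (2.5e-06) with 50 nM. At 1 week it read 171, 166 and 156 with vehicle, 131, 118 and 106 with 5 nM and 89.9, 114 and 93.0 with 50 nM. Thus XPA fell by 0.48 (SE 0.14, 0.0463) and 0.74 (SE 0.14, 0.00188). RAD23B, which stabilizes the damage sensor XPC, rose at 4 weeks by 0.65 ± 0.12 (0.000474) and 0.84 ± 0.12 (3.11e-05), its second probe set by 0.96 and 1.08, and fell at 1 week with 50 nM by 0.56 (SE 0.12, 0.00329). XPC itself was called with 50 nM (0.43 ± 0.15, 0.0253), a call lost under quantile normalization (0.114).

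DDB2, the sensor of ultraviolet damage and a known target of p53, went down at 4 weeks. DDB2 read 153, 174 and 162 in 4w0nM, 92.4, 118 and 119 in 4w5nM and 119, 123 and 140 in 4w50nM. No rotenone array reached the vehicle arrays, and DDB2 fell by 0.58 (SE 0.13, adjusted p = 0.00326) with 5 nM and by 0.36 (SE 0.13, 0.0398) with 50 nM. DDB1, its partner, differed by no more than 0.14 in any comparison with vehicle. The ERCC genes, which include the helicases and nucleases that open and cut the strand, were not called in any comparison with vehicle. ERCC1, ERCC2, ERCC3, ERCC4, ERCC5 and ERCC6 had differences between -0.42 and 0.35 at 4 weeks, with standard errors of 0.16 to 0.23.

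In mismatch repair, PMS1 and MSH6 rose at 4 weeks. PMS1, a MutL homolog, read 552, 532 and 527 in 4w0nM, 772, 735 and 806 in 4w5nM and 1512, 1154 and 918 in 4w50nM, with no overlap between any of these groups. It rose by 0.52 ± 0.17 (adjusted p = 0.0252) with 5 nM and by 1.12 ± 0.17 (7.32e-05) with 50 nM. MSH6, a subunit of the main mismatch sensor, read 1016, 1027 and 973 with vehicle, 1446, 1543 and 1633 with 5 nM and 1241, 1162 and 1320 with 50 nM. MSH6 rose with 5 nM (0.61 ± 0.14, 0.00274) and, although its arrays of 50 nM also lay above vehicle, the difference was not called there (0.30 ± 0.14, 0.0914). At 1 week MSH6 read 1220, 1305 and 826 in 1w0nM, 930, 1097 and 1024 in 1w5nM and 721, 787 and 860 in 1w50nM. MSH6 and MSH3, the subunit for larger loops, fell with 50 nM by 0.48 (SE 0.14, 0.0223) and 0.56 (SE 0.12, 0.00487). The call of MSH6 was lost with the 2 arrays of doubtful label exchanged (limma, -0.36, adjusted p = 0.131).

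REV3L, the catalytic subunit of translesion polymerase zeta, had the largest difference of any member. It read 118, 144 and 135 in 4w0nM, 321, 251 and 310 in 4w5nM and 636, 521 and 433 in 4w50nM, and these groups did not overlap. REV3L rose by 1.15 ± 0.14 (adjusted p = 2.71e-05) with 5 nM and by 1.99 ± 0.14 (1.94e-07) with 50 nM. At 1 week it read 138, 133.4 and 130 with vehicle, 137, 153 and 129 with 5 nM and 86.7, 96.0 and 84.7 with 50 nM, which was a fall of 0.59 (SE 0.14, 0.00923) with 50 nM. This fall was not called with the 2 arrays of doubtful label exchanged (limma, -0.30, adjusted p = 0.346). Of the crosslink repair genes of the Fanconi anemia pathway, the ubiquitin ligase FANCL rose at 4 weeks by 0.42 ± 0.15 (0.0397) and 0.52 ± 0.15 (0.00991). FANCG, of the core complex, rose at 1 week, reading 410, 328 and 205 in 1w0nM, 500, 580 and 487 in 1w5nM and 461, 489 and 442 in 1w50nM. These differences were 0.78 ± 0.20 (0.0221) and 0.62 ± 0.20 (0.034), and at 4 weeks FANCG differed by -0.36 ± 0.20 (0.162) and -0.30 ± 0.20 (0.235). With the 2 arrays of doubtful label exchanged, FANCG was not called with 5 nM at 1 week (limma, 0.65, adjusted p = 0.0654).

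The calls against vehicle at 4 weeks of ATR, RAD1, MRE11, RAD50, TDP2, XPA, RAD23B and REV3L at both doses, of XRCC4, DDB2 and MSH6 with 5 nM, and of RAD52, XRCC6, OGG1, APEX1, PMS1 and FANCL with 50 nM held without any 1 of the 6 arrays compared. With 5 nM, CHEK1 lost its call without 4w0nM replicate 3 (highest adjusted p = 0.0615), RAD54L without 4w0nM replicate 1 or 4w5nM replicate 3 (0.0941), XRCC2 without replicate 2 of either group (0.0543), LIG4 without 4w0nM replicate 3 or 4w5nM replicate 1 (0.0809), NBN without replicate 1 or 2 of either group (0.0886), and PMS1 (0.0706), HUS1 (0.113) and FANCL (0.119) each without 5 of the 6 arrays in turn, which leaves PMS1 called only without 4w5nM replicate 2, and HUS1 and FANCL only without 4w5nM replicate 3. With 50 nM, XRCC2 (0.122) and XRCC4 (0.0956) lost theirs without 4w0nM replicate 2 or 3 or 4w50nM replicate 1 or 2, XPC (0.088) without 4w0nM replicate 2 or 3 or 4w50nM replicate 1 or 3, XRCC3 (0.112) without any vehicle array or 4w50nM replicate 2, PRKDC (0.172) without any vehicle array or 4w50nM replicate 2 or 3, and DDB2 (0.132) without any vehicle array or 4w50nM replicate 1 or 2.

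Quantile normalization also ended the calls of PMS1 (adjusted p = 0.0922), HUS1 (0.0577) and FANCL (0.173) with 5 nM and of NBN with 50 nM (0.115), median scaling that of DDB2 (0.065) and the lack of a filter that of XRCC3 (0.0607) with 50 nM.

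The calls rest on 1 probe set per gene, the brightest, and 19 members had more than 1 that passed. Of the 75 probe sets of the members that passed, 24 were called higher and 4 lower with 5 nM at 4 weeks, compared with 18.3% and 14.1% of all 13711 probe sets. With 50 nM 21 were called higher and 9 lower, against 22.9% and 18.1%. These counts take some genes more than once and include the members that the study had picked out on these arrays. They can therefore not be set against the shares of all probe sets. Of the 19 members with several probe sets, 13 had all of them on the same side of 0 with 5 nM and 13 with 50 nM. OGG1 was the only one with probe sets called in opposite directions, at 50 nM. RAD23B and ATR rose on both of their probe sets at both doses.

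**Figure D3:**
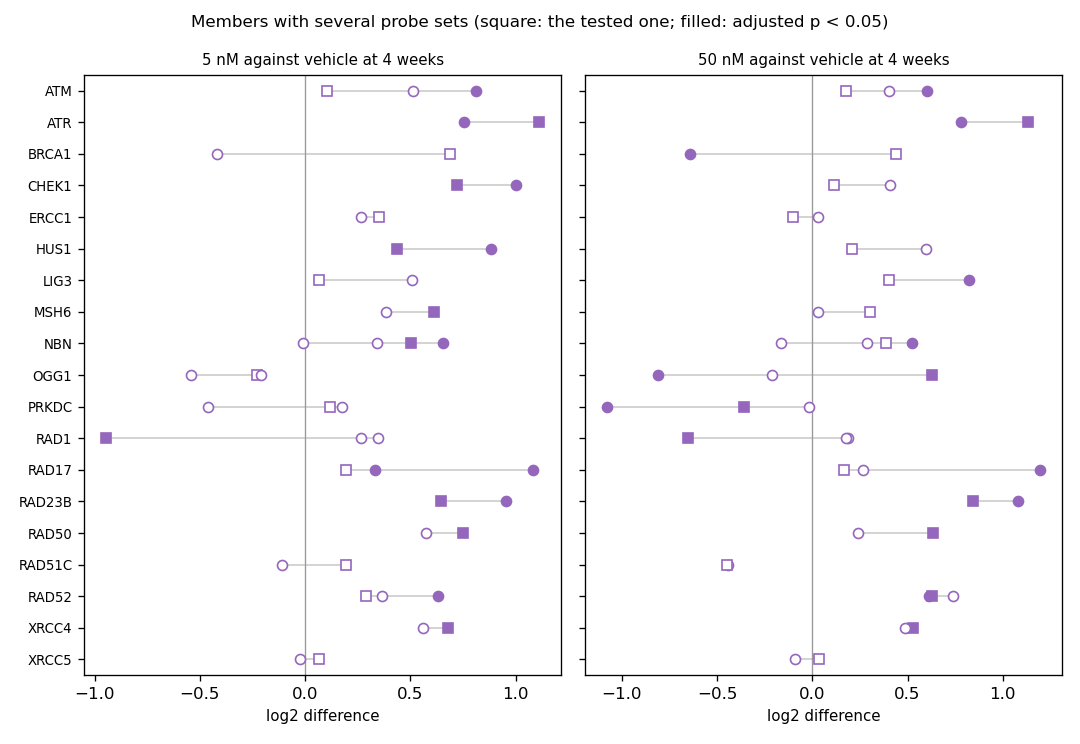
Log2 difference at 4 weeks (x axis) of each probe set of the 19 members that had several (y axis), with 5 nM on the left and 50 nM on the right; squares are the tested probe sets and filled symbols have an adjusted p below 0.05. The probe sets of ATR and RAD23B lie close together above 0, whereas those of RAD1, BRCA1 and, with 50 nM, OGG1 lie on both sides of 0.

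After 1 week fewer members were called, and those called with 50 nM were mostly lower. Exposure to 5 nM left 3 of the 48 members higher and 2 lower, compared with 4.98% and 1.62% of all genes. After 50 nM, 2 were higher and 10 lower, compared with 8.75% and 11.3%. The median difference of the members was 0.01 with 5 nM and -0.14 with 50 nM, beside 0.07 and 0.02 for all genes. The 10 that fell with 50 nM were ATR, RAD17, MRE11, RAD50, TDP2, XPA, RAD23B, MSH3, MSH6 and REV3L, and 7 of them were called higher with 50 nM at 4 weeks (ATR, MRE11, RAD23B, RAD50, REV3L, TDP2 and XPA). All 10 are among the 15 genes that the study had picked out, and of the other 33 members 2 rose and none fell with 50 nM (limma). With 1w5nM replicate 2 and 1w50nM replicate 3 exchanged, the calls were 2 higher and 2 lower for 5 nM, and 4 higher and 7 lower for 50 nM. ATR (adjusted p = 0.284), RAD50 (0.0773), MSH6 (0.131) and REV3L (0.346) were then no longer called with 50 nM, nor FANCG with 5 nM (0.0654). Without both arrays, no member was called with 5 nM and 10 were with 50 nM. Under the labelled groups no member was called between 50 nM and 5 nM (limma, 0.0109% of all genes), 9 of the 48 members had an unadjusted p below 0.05 (13% of all genes), and the t-test of the methods called none after adjustment. With the 2 arrays exchanged no member was called either.

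The 1w0nM arrays, the comparator of these differences, agreed least with each other. Their lowest pairwise correlation over genes was 0.914, against 0.967 or more within every other group. The mean log2 signal of the 48 members was 8.24 on 1w0nM replicate 3 and between 8.29 and 8.71 on the other 17 arrays. Without 1w0nM replicate 3, 8 members were called with 5 nM (2 higher, 6 lower) and 18 with 50 nM, and 5 members were called between the doses. With 5 nM, 0 members were called without 1w5nM replicate 2, 2 without 1w5nM replicate 1, and 3 without each of 1w5nM replicate 3, 4w0nM replicate 3 and 4w5nM replicate 1. With 50 nM, the calls of RAD17, MRE11, RAD54L, TDP2, XPA, RAD23B, MSH3 and REV3L held without any 1 of the 6 arrays. Those of ATR (highest adjusted p = 0.134) and RAD50 (0.146) were lost without any of them but 1w0nM replicate 3, that of MSH6 (0.107) without 1w0nM replicate 1 or 2 or 1w50nM replicate 1 or 2, and that of FANCG (0.102) without 1w0nM replicate 3 or any array of 50 nM. With 5 nM, RAD17 (0.0539) and RAD54L (0.0992) lost their calls without 1w5nM replicate 2, FANCG (0.116) without 1w5nM replicate 1 or 2, XRCC2 (0.116) without any array but 1w0nM replicate 2, and XPA (0.16) without any but 1w0nM replicate 3.

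Because the vehicle arrays of 1 week varied, the rotenone groups of the weeks were also set against each other directly, a comparison added after the data had been seen. From 1 to 4 weeks, 15 members were higher and 6 lower with 5 nM (20.4% and 17.3% of all genes), and 23 were higher and 4 lower with 50 nM (30.5% and 20.7% of all genes). Of these rises, 11 with 5 nM and 12 with 50 nM were of the 15 members that the study had picked out on these arrays. None of the falls was. The other 33 members held 4 rises and 6 falls with 5 nM, and 11 rises and 4 falls with 50 nM. With 50 nM, the log2 difference was 2.56 ± 0.14 for REV3L, 1.67 ± 0.14 for XPA, 1.60 ± 0.13 for TDP2, 1.42 ± 0.16 for MRE11 and 1.41 ± 0.15 for ATR. Between the vehicle groups only XPA was called, lower at 4 weeks (-0.54 ± 0.14, adjusted p = 0.0372), while 2.88% of all genes were higher and 0.72% lower. Its call was lost without replicate 1 of either vehicle group, 1w0nM replicate 2 or 4w0nM replicate 3 (up to 0.192).

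Between 50 nM and 5 nM at 4 weeks, 5 members were higher and 3 lower, shares close to the 10.1% and 7.35% of all genes. Higher with 50 nM were OGG1 (0.86 ± 0.14, adjusted p = 0.000851), REV3L (0.84 ± 0.14, 0.000966), XPA (0.80 ± 0.14, 0.00102), PMS1 (0.60 ± 0.17, 0.0202) and XPC (0.54 ± 0.15, 0.0171). Lower were CHEK1, PRKDC (-0.48 ± 0.14, 0.0257) and XRCC6 (-0.39 ± 0.11, 0.0187). The signals behind these values are those given above for each gene, and OGG1 was called on 1 of its 3 probe sets. The calls of OGG1, REV3L and XPA held without any 1 array. Those of CHEK1 (highest adjusted p = 0.154) and PRKDC (0.113) were lost without 5 of the 6 arrays in turn, all but 4w5nM replicate 3 and 4w50nM replicate 1 respectively, and without a filter (0.0896 and 0.0502), that of CHEK1 also without an intensity trend (0.0561). PMS1 (0.138) lost its call without replicate 1 or 2 of either group, XRCC6 (0.11) without 4w5nM replicate 2 or 4w50nM replicate 1 or 2, and XPC (0.0989) without 4w5nM replicate 2 or 4w50nM replicate 1 or 3. With 4w5nM replicate 1 left out 5 members were called, with 4w5nM replicate 2 left out 3, and with 4w50nM replicate 1 or 2 left out 4.

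Several of these genes share a chromosome with many others that moved the same way between the doses. Of the 359 tested genes on chromosome 8, 43.5% were lower with 50 nM than with 5 nM and 2.23% higher, and their median difference was -0.50. PRKDC lies on chromosome 8, as do NBN and 4 further repair genes, and of these 6, 4 were lower and none higher. Of the 500 tested genes on chromosome 6, 30.2% were higher and 2.4% lower, with a median of 0.29. REV3L and TDP2 lie there, and of the 8 repair genes on chromosome 6, 4 were higher and none lower. OGG1 and XPC lie on chromosome 3, where the shift went both ways: 28.5% of 522 genes were higher, 11.9% were lower and the median was 0.12. Of the 9 repair genes on chromosome 3, 3 were higher and 1 lower, with a median of 0.02. The differences of OGG1, REV3L, XPA, XPC, PMS1, CHEK1 and XRCC6 exceeded the median of their chromosome in size, and that of PRKDC (-0.48) did not. These genes were chosen for being called, which in itself favours differences larger than such a median. The part of the chromosome in the result was not tested.

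**Figure D4:**
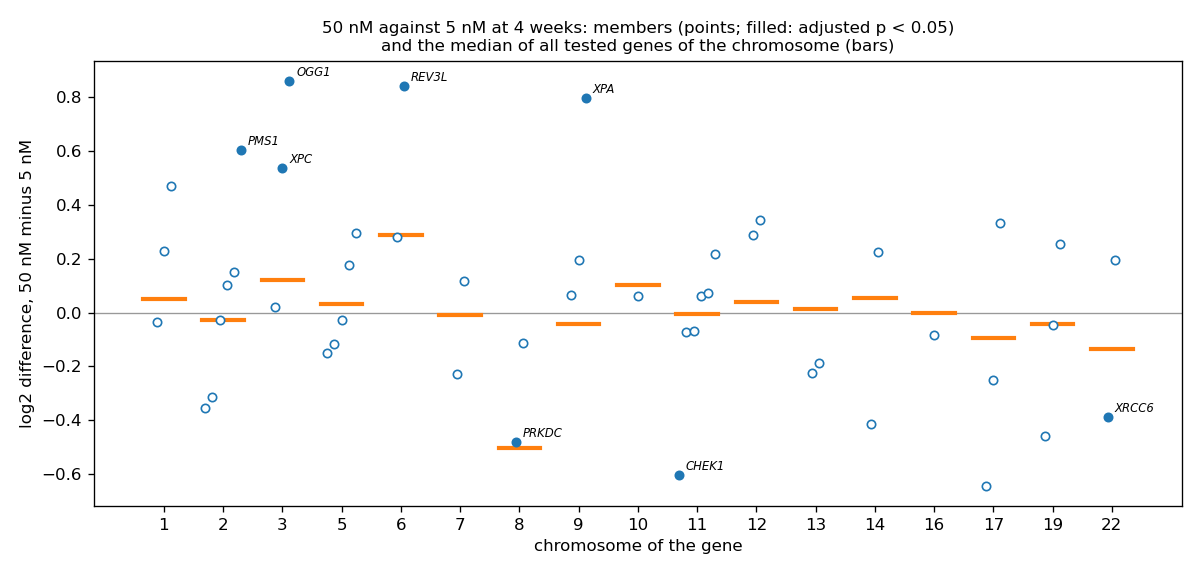
Log2 difference between 50 nM and 5 nM at 4 weeks (y axis) of the 48 members, by the chromosome of the gene (x axis); filled points have an adjusted p below 0.05, and bars are the median of all tested genes of that chromosome. PRKDC at -0.48 sits on the bar of chromosome 8 at -0.50, whereas OGG1, REV3L and XPA sit well above theirs.

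A wider list of 125 other genes of the same pathways, 96 of them tested, gave the setting of these results. It holds genes that the study itself had picked out from these arrays, MAP3K20, WRN, RECQL4, RAD54B, ERCC8, MBD4, WEE1 and CDC25A among them, so their direction is no independent evidence. At 4 weeks, 5 nM raised 22 of the 96 and lowered 9, and 50 nM raised 29 and lowered 13, where 18.6% and 14.3% of all genes were called with 5 nM and 23.5% and 17.7% with 50 nM. With 5 nM the largest called rises were those of WRN, a helicase of stalled forks (1.55 ± 0.29 on the log2 scale), MAP3K20, a stress kinase of the checkpoint (1.41), POLI, a translesion polymerase (0.92), and SMC5, a subunit of the SMC5/6 complex (0.83). The largest called falls were those of POLH, another translesion polymerase (-1.04), GTF2H3, a subunit of TFIIH (-0.84), the replicative ligase LIG1 (-0.76) and FANCI (-0.54).

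With 50 nM the largest called rises in that list were those of MAP3K20 (1.22), FANCE of the Fanconi core complex (1.13), PARG, which removes poly(ADP-ribose) (1.13), and POLI (1.07). RECQL4, a helicase of replication (-2.0), the histone variant H2AX (-1.71), NUDT1, which clears oxidized nucleotides (-1.07), and POLH (-1.04) had the largest called falls. H2AX read 1035, 998 and 961 with vehicle, 888, 964 and 585 with 5 nM and 256, 190 and 584 with 50 nM, so that 1 array of 50 nM was close to an array of 5 nM. Between the doses, 5 of the 96 were higher with 50 nM and 6 lower, where 10.1% and 7.35% of all genes were. The highest of those called were FANCE (0.75), GTF2H4 (0.63) and MDC1 (0.50), all on chromosome 6, and REV1 (0.50), and the lowest H2AX (-1.38), WRN (-1.09) and RAD54B (-0.81), of which WRN and RAD54B are on chromosome 8, and RFC4 (-0.76).

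Of 14 transcripts known to be raised by p53 after DNA damage, 11 were tested. With 5 nM at 4 weeks 2 of them rose, MDM2 (0.93) and PPM1D (0.59), and FAS fell (-0.52), where 18.6% of all genes rose and 14.3% fell. With 50 nM 5 rose, among them GADD45A (1.5), MDM2 (1.15) and PLK3 (0.82), and FAS fell (-1.10). Over all genes, 23.5% rose and 17.7% fell with 50 nM. GADD45A read 107, 104 and 84.7 with vehicle, 84.0, 63.3 and 56.6 with 5 nM and 360, 345 and 172 with 50 nM. The median of the list was -0.18 with 5 nM and -0.07 with 50 nM. CDKN1A, the best known of these targets, was not called (-0.29 ± 0.21, adjusted p = 0.31, and -0.30 ± 0.21, 0.282).

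Other measures moved with the 4-week groups. The mean of 18 probe sets for the RNA controls that are spiked in before hybridization was 8.69 to 9.10 on the log2 scale in 4w5nM and 8.91 to 9.01 in 4w50nM, compared with 9.69 to 10.12 on the other 12 arrays, so that rotenone at 4 weeks and this difference in hybridization cannot be told apart. The log2 ratio of the 3′ to the 5′ probe set of ACTB, a measure of RNA length, was 0.13 to 0.21 in 4w50nM, and -0.09 to -0.04 in 4w0nM and -0.01 to 0.09 in 4w5nM. The summed signal of 20 S phase genes was 24896 to 26354 in 4w0nM, 18312 to 26036 in 4w5nM and 18657 to 25353 in 4w50nM, and 1 of these genes rose and 6 fell with 50 nM, with TK1 at -1.13. Over all genes, 23.5% rose and 17.7% fell in that comparison. At 1 week the sum of the S phase genes was 16178 to 24399 in 1w0nM, 25132 to 26564 in 1w5nM and 23447 to 24635 in 1w50nM. Their part in the results on the repair genes was not tested.

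The study describes SK-N-MC as an intermediate line that can turn into neuroblastic and into substrate-adherent cells. In pooled RNA, fewer cells of a type and less RNA per cell cannot be told apart. Of 7 markers of the Ewing and neuroepithelioma family, 6 were tested, and their summed signal was 12660 to 12727 in 4w0nM, 11901 to 13250 in 4w5nM and 9138 to 10553 in 4w50nM, so that the arrays of 50 nM lay below the others at 4 weeks, with 2 markers called lower and a median difference of -0.33 from vehicle and of -0.31 from 5 nM. Over all genes, 17.7% were called lower than vehicle with 50 nM at 4 weeks. At 1 week the sum of these markers was 8242 to 12708 in 1w0nM, 11720 to 12211 in 1w5nM and 10790 to 12029 in 1w50nM, and CD99 read 2067 to 3471 over all arrays. Of 12 neuroblastic markers, 9 were tested, and their sum was 5381 to 5611 in 4w0nM, 4636 to 5543 in 4w5nM and 4633 to 4994 in 4w50nM. NEFM, STMN2 and CHRNA3 did not pass the filter on any probe set, with no signal above 37.3. All 12 fibroblast-like markers were tested, and their sum was 9126 to 9422 in 4w0nM, 5896 to 7540 in 4w5nM and 5603 to 6456 in 4w50nM. At 1 week it was 5028 to 6178 in 1w0nM, 9452 to 10035 in 1w5nM and 9060 to 9551 in 1w50nM. The sum was thus higher with rotenone than with the vehicle of the same week at 1 week and lower at 4 weeks. The vehicle groups themselves differed between the weeks, with a mean sum of 5580 in 1w0nM and 9242 in 4w0nM. Of the 12 markers, 5 were called higher with 5 nM and 6 with 50 nM at 1 week and none lower, and at 4 weeks 1 was higher and 5 lower with 5 nM, over a range of -1.54 to 1.83, and 6 were lower and none higher with 50 nM. Over all genes, 4.98% were higher and 1.62% lower with 5 nM at 1 week, and 8.75% and 11.3% with 50 nM. At 4 weeks these shares were 18.6% and 14.3% with 5 nM, and 23.5% and 17.7% with 50 nM. The part of these marker lists in the results was not tested.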

How the data were processed

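The authors extracted total RNA from SK-N-MC cells, hybridized biotinylated cRNA to Affymetrix arrays and, as deposited, gave 1 intensity per probe set and array on a linear scale, normalized and summarized as a model-based expression index in dChip; its version and the normalization method are not given in the sources used here. Array medians were 87.0 to 102, and no further scaling was done. Signals under 16 were raised to 16 and log2 was taken, so that folds of dim genes are understated. Of 22283 probe sets, a probe set was used if it was assigned to a single gene and reached 50 on 3 arrays or more, and the probe set with the highest mean stood for its gene, which left 9162 genes. limma 3.58.1 (R 4.3.3) took in all 18 arrays, with 1 mean per group and an intensity trend (12 residual and 5.71 prior degrees of freedom). P-values were adjusted by Benjamini-Hochberg over all genes in each comparison, and a gene was called at an adjusted p below 0.05. The comparisons were each dose against vehicle, the doses against each other, vehicle between weeks, and each dose effect between weeks. The script was tested on simulated data.

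The members and gene lists were chosen with earlier results of these data known, and part of the members are genes that the study itself picked out on these arrays. Signals of every array are given for up to 4 called members with the largest rise and up to 4 with the largest fall in each comparison of doses within a week, and for ATR, ATM, CHEK1, CHEK2, BRCA1, MSH6 and PARP1. From the wider list, up to 4 called genes with the largest rise and fall in each 4-week comparison are named, and from other lists up to 3 examples; genes on 1 chromosome, the further members and CDKN1A were added after their values were seen. Promoter windows are from RefSeq (GRCh38.p14), and chromosomes from RefSeq by gene symbol. Alternatives were other floors, scalings, filters and probe set rules, other limma settings, a replicate block, the methods' t-test and leaving out arrays; the exchange of 2 arrays of 1 week and the split of the members by the study's own choice were added after the data were seen. The number of arrays limits the precision. Some results on recombination genes are not reported here.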

Additional observations from a re-analysis of the deposited data

Results flagged for a closer look

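The effect of a dose can be compared between the weeks in the limma model as the difference at 4 weeks minus that at 1 week, and a value above 0 means a more positive effect at 4 weeks. With 5 nM this difference was called for 19 members, 13 above and 6 below 0, where 15.2% of all genes were above and 17.5% below. With 50 nM it was called for 26 members, 18 above and 8 below, where 24.3% and 20.5% of all genes were. Both weeks' vehicle arrays enter each value, and those of 1 week varied most. Of the values above 0, 11 with each dose were of the 15 members that the study had picked out on these arrays, and none of those below 0 was. With the 2 arrays of doubtful label exchanged, 14 members were above and 5 below with 5 nM, and 19 and 8 with 50 nM.

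In signalling, the difference was 1.11 with 5 nM and 1.60 with 50 nM for ATR, 0.70 and 0.76 for RAD17, -1.38 and -0.99 for RAD1, and 1.01 with 5 nM for CHEK1. In break repair it was 1.45 and 1.81 for MRE11, -1.69 and -1.22 for RAD54L, -1.30 and -1.02 for XRCC2, 1.32 and 1.98 for TDP2, and with 50 nM -1.06 for XRCC3 and -0.68 for XRCC6. In excision repair it was 1.15 and 2.21 for XPA, -0.99 and -0.61 for DDB2, and 0.62 with 50 nM for OGG1. In the remaining roles it was 0.93 and 1.47 for PMS1, 0.73 and 0.78 for MSH6, -1.15 and -0.92 for FANCG, and 1.09 and 2.58 for REV3L. The signs for RAD1 and OGG1 with 50 nM turned when the probe sets of the gene were averaged. On leaving out single arrays, the calls given here held in limma except those with 50 nM of OGG1, lost without 4w0nM replicate 1 (adjusted p = 0.0531), and of XRCC3, lost without 1w0nM replicate 3, any 1w50nM or 4w0nM array or 4w50nM replicate 2 (up to 0.0947).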

How the results depend on the processing

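Among 112 results for named members, 77 of them called, 3622 values under alternatives kept side and direction in 3326 cases, lost a call in 241, gained one in 52 and turned in 3. The 3 turned when the probe sets of each gene were averaged, where OGG1 was -0.13 with 50 nM at 4 weeks, and the 50 nM effect between weeks was 0.17 for RAD1 and -0.29 for OGG1. Leaving out 1 array turned none. The cause was not tested.

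The number of members called with 5 nM at 1 week was 5, and it was 0 with only the arrays compared, 2 with array weights, 3 with a replicate block, 0 by the methods' t-test after adjustment, 9 without adjustment, 0 with a 2-fold minimum, 0 without both 1w5nM replicate 2 and 1w50nM replicate 3, and 0 to 8 on leaving out single arrays. With 50 nM at 1 week it was 12, and 4 with only the arrays compared, 0 by the t-test adjusted or with the 2-fold minimum, and 8 to 18 on leaving out single arrays. At 4 weeks 19 with 5 nM and 21 with 50 nM became 2 and 5 with the 2-fold minimum, with 14 to 22 and 14 to 26 on leaving out single arrays. Between the doses at 1 week, 0 became 2 with only the arrays compared, 13 with array weights and 11 by the unadjusted t-test, stayed 0 without both arrays, and was 0 to 5 on leaving out single arrays. Between the doses at 4 weeks, 8 became 5 with only the arrays compared, 22 with array weights, 2 by the adjusted t-test and 0 with the 2-fold minimum, and 3 to 12 on leaving out single arrays. Between the vehicle groups, 1 became 3 with quantile normalization or averaged probe sets, 2 with median scaling, no filter or a minimum of 100, 5 by the unadjusted t-test, and 0 with only the arrays compared, array weights, a replicate block, the adjusted t-test, the 2-fold minimum, without both arrays or with them exchanged, and 0 to 7 on leaving out single arrays. The t-test was not run for effects between weeks, and the array weights stopped short of full convergence in some fits.

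Replicate numbers did not pair the arrays, since 11 of 45 same-numbered pairs had a correlation above 0.1 (lowest -0.48) and 7 of 18 arrays correlated best with their own number. With the replicate as a block, 5 of the 112 named results lost their call, and at 4 weeks the block ended those of PRKDC with 50 nM (adjusted p = 0.0662), FANCL with 5 nM (0.0559) and CHEK1 between the doses (0.0516).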
